A study of Homo sapiens
Mus musculus and Mus musculus and Homo sapiens with 16 samples.

Results

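The transcripts of 10 receptor genes for interleukins and interferon gamma were followed in REC-1 cells: IL7R, IL4R, IL21R, IL2RG, IL13RA1, IL6R, IL6ST, IL10RA, IL10RB and IFNGR1. They were taken by symbol from the human count table as a list of 10 among its 58051 genes, and all 10 were among the 12861 genes with enough counts to be tested. The genes were chosen by role and with their counts and fold changes between the 3 REC-1 groups already known, so their changes between REC-1 groups are given below as values with their errors and without a p-value. REC-1 is a human mantle cell lymphoma (MCL) line, a malignancy of mature B cells, and MS-5 is a mouse stromal line derived from bone marrow. RNA was sequenced after 24 h from REC-1 cells in monoculture (Sep), from REC-1 cells that stayed in suspension above MS-5 cells (Susp), from REC-1 cells adhered to the MS-5 layer (Adh) and from MS-5 cells alone, with 4 libraries in each of the 4 groups and no drug or genetic change in any of them. Adh cells were lysed together with the MS-5 layer and the reads were assigned to human or mouse by sequence, so each Adh library has a human and a mouse count column. Each condition was studied in 1 lymphoma line and 1 stromal line. The study describes its sequenced fractions as coming from 4 independent experiments. Sample titles share a replicate number and the leading number of the sample code across the 4 groups, but do not state that these mark 1 experiment. The p-values therefore measure the spread between these libraries.

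Cytokine receptors of this kind are pairs or triplets of membrane chains without a kinase of their own. Binding of the ligand brings the chains together, the Janus kinases (JAKs) bound to their tails phosphorylate STAT transcription factors, and STATs act on target genes in the nucleus. IL7R, IL4R and IL21R each work with IL2RG, the common gamma chain, and IL4R can pair with IL13RA1 instead. IL6R hands its ligand to IL6ST, known as gp130, which is shared by the whole IL-6 family. IL10RA binds IL-10 and signals with IL10RB, which several related receptors share, and IFNGR1 binds interferon gamma and signals with IFNGR2. In bone marrow, stromal cells are a classical source of IL-7 for early B cells.

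Human counts per library ranged from 9325412 to 12597891 in Sep, from 15000927 to 21467832 in Susp and from 7758979 to 13241751 in Adh cells, where human reads made up 18.3 to 28.2% of the library. The B-cell markers MS4A1, CD79A and PAX5 had means of 1159, 994.2 and 911.4 CPM (counts scaled to a common library size) in Sep, 1119, 1248 and 806.7 in Susp and 1220, 1106 and 876.6 in Adh cells. Of 8 B-cell markers none was called in any comparison, but 2 moved by less than the fold minimum in the direction of IL7R and IL10RA. CD22 was higher than in Sep cells by 0.43 on the log2 scale in Susp (adjusted p = 0.0236 in edgeR) and by 0.39 in Adh cells (adjusted p = 0.0250), and CD79B by 0.55 in Susp (adjusted p = 0.0310) and 0.20 in Adh cells (adjusted p = 0.358). The 8 stromal markers summed to at most 2.51 CPM in Sep, 2.39 in Susp and 2.10 in Adh cells. Most of their human counts in Sep and Adh libraries were POSTN, with 62 and 47, against 27 mouse counts in Adh libraries. COL1A2 and CXCL12 were at 0 human counts in the Adh libraries, whose mouse counts for these genes summed to 167405 and 57470. COL1A1 had 8 human counts over the Adh libraries against 170277 mouse counts. Monocyte markers summed to at most 2.20 CPM, natural killer cell markers to at most 0.514 CPM and the 4 T-cell markers to at most 7.61 CPM. Most of the latter was CD3E, with means of 3.27 CPM in Sep, 4.77 in Susp and 5.30 in Adh cells and log2 fold changes of 0.55 (adjusted p = 0.309 in edgeR) and 0.71 (adjusted p = 0.157), while CD2 was at 0 counts in every library and CD3D and CD3G had at most 10 counts. The part of these markers in the receptor values was not tested. In bulk RNA of this kind, fewer cells with a transcript and less of it per cell cannot be told apart.

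IL7R and IL10RA were the 2 genes whose Susp and Adh libraries all lay above every Sep library. The promoter of IL7R is shown because it had the larger difference of both. The run is the 250 bases upstream of the start of the canonical transcript in GRCh38, read 5′ to 3′ on the strand of the gene, and capitals would mark CpG dinucleotides, of which it has none. It lies at chr5:35856641-35856890 (+).
IL7R: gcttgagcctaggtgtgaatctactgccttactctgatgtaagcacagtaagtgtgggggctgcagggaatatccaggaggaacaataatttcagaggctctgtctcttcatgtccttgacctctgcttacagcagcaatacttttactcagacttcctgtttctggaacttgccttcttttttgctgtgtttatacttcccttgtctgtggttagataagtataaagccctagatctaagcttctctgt
The IL7R sequence held 0 CpG dinucleotides, as did 2.88% of the same window in 20033 protein-coding genes, and had 43.6% G or C. The median over these promoters was 18. Among other members the number ran from 3 in IL2RG and 5 in IL21R to 31 in IL6ST and 35 in IL4R. The palindromic core of the gamma-activated site bound by STAT dimers, TTCNNNGAA, was searched from 250 bases before to 50 bases after each start, on both strands. It occurred in the window of 1 member, IL10RB, and in 6.49% of all promoters. A match or its absence describes these letters only.

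The levels of the 10 genes relative to each other were compared per kilobase of exon (RPKM), since CPM grows with transcript length. IFNGR1 was the most abundant in Sep cells with 52.5 RPKM ± 5.12 (SD, n = 4), followed by IL10RA with 30.2 ± 2.15, IL13RA1 with 16.1 ± 0.797 and IL2RG with 10.04 ± 0.883. IL6R had 2.95 RPKM ± 0.241. Next came IL10RB, IL6ST and IL7R with means of 1.59, 1.56 and 1.37 RPKM, and neighbours among these overlapped between libraries. IL4R (0.799 RPKM) and IL21R (0.412 RPKM) were lowest. The common gamma chain therefore stood above each of the chains it pairs with, and IL10RA above IL10RB, on this scale. IL10RB shares exons with IFNAR2-IL10RB on the same strand, and any reads lost to that overlap would lower its value, which was not tested.

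In coculture the order changed at a few places. In Susp cells IL10RA reached 47.8 RPKM ± 2.76 and its libraries overlapped those of IFNGR1 (48.4 ± 1.25). IL7R moved from the eighth place in Sep to the fifth in Susp cells, with 3.33 RPKM ± 0.465 and libraries overlapping those of IL6R, and the sixth in Adh cells, with 2.88 ± 0.295. IL10RA made up 25.7% ± 2.42 of the summed RPKM of the 10 genes in Sep, 35.2% ± 2.39 in Susp and 31.3% ± 2.64 in Adh cells (SD, n = 4), and IFNGR1 made up 44.6% ± 2.495, 35.6% ± 0.944 and 40.5% ± 2.22. IL7R made up 1.16% ± 0.268, 2.46% ± 0.370 and 2.27% ± 0.211. The order depends on the length used. With the length of the canonical transcript in place of all exons, a choice made after seeing the data, IL7R took the sixth place in Susp and the seventh in Adh cells, IL10RA came before IFNGR1 and IL2RG before IL13RA1 in Susp and Adh cells, and IL10RB before IL6R in all 3 groups.

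**Figure D1:**
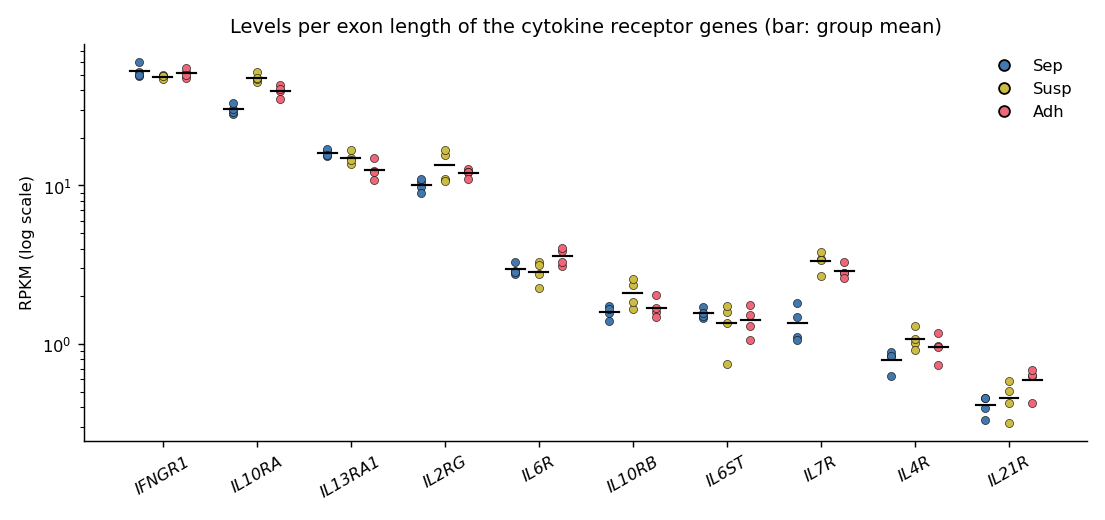
Level of the 10 receptor genes in RPKM (log axis) in every REC-1 library, with Sep in blue, Susp in yellow and Adh in red and a bar at each group mean. IFNGR1 and IL10RA lie highest and IL4R and IL21R lowest in all 3 groups, and the IL7R points of Susp and Adh cells lie above those of Sep cells.

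The first comparison asked which receptor genes differed between REC-1 cells in suspension with stroma and monocultured REC-1 cells. IL7R (ENSG00000168685, chromosome 5, 35852695 to 35879603, plus strand), the IL-7 binding chain, had 8.98, 6.69, 10.9 and 6.38 CPM in Sep replicates 1 to 4. The Susp libraries had 20.6, 16.3, 20.3 and 23.0 CPM. Every Susp library was above every Sep library, and the lowest Susp value lay well above the highest Sep value. The fitted log2 fold change was 1.29 (SE 0.17, 95% interval 0.93 to 1.65), or 2.45-fold, from 80 to 114 counts per Sep library and 265 to 420 per Susp library.

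IL10RA (ENSG00000110324, chromosome 11, 117986370 to 118003037, plus strand), the IL-10 binding chain, was among the more abundant genes and had tighter libraries. The Sep libraries had 250.4, 255.0, 267.1 and 292.7 CPM. The Susp libraries had 399.2, 416.3, 456.8 and 417.3 CPM. The groups did not overlap, and the log2 fold change was 0.67 (SE 0.08, 95% interval 0.49 to 0.84), or 1.59-fold.

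Of the 10 genes, 2 (IL7R and IL10RA) were called higher in Susp than in Sep cells and 0 lower, where a call needs a Benjamini-Hochberg adjusted p over all tested genes of at most 0.05 in edgeR and a fold change of at least 1.5. Of all tested genes, 0.731% were called in this comparison and 0.428% were called higher and 0.303% lower. Because the genes were chosen with this contrast known, nothing is read from that count. In the same comparison 3 genes had Susp libraries that did not overlap the Sep libraries, all of them higher, against 11.3% of all tested genes that did not overlap in either direction. The median log2 fold change of the 10 genes was 0.28 and that of all tested genes -0.01, with 6 of the 10 above 0 and 4 below, where 49.2% of all tested genes were above 0. Without Susp replicate 2 the median of the 10 genes was 0.16.

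The other gene without overlap was IL4R (chromosome 16, 27313668 to 27364778, plus strand), the chain for IL-4 that also serves IL-13. It had 3.70, 4.94, 5.23 and 4.94 CPM in Sep and 5.97, 7.68, 6.38 and 5.37 CPM in Susp replicates 1 to 4. The highest Sep library and the lowest Susp library were close together, and the log2 fold change of 0.44 (SE 0.19) was not called. IL21R (chromosome 16, 27402174 to 27452042, plus strand), the IL-21 chain, lies next to IL4R in the genome and was the least abundant member, with 23 to 52 counts in any Sep or Susp library. Its log2 fold change was 0.16 with a 95% interval of -0.40 to 0.72, so a change of the size seen for IL10RA could not be told from none at this depth.

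The shared chains differed among Susp libraries. IL2RG (X chromosome, 71107404 to 71112108, minus strand), the common gamma chain, had 28.7, 26.8, 29.9 and 24.4 CPM in Sep replicates 1 to 4. The Susp libraries had 42.8, 45.9, 29.9 and 29.1 CPM. Susp replicates 1 and 2 stood above all Sep libraries, while replicates 3 and 4 were within or near the Sep range, and the log2 fold change was 0.43 (SE 0.14, 95% interval 0.13 to 0.73). IL10RB (chromosome 21, 33266367 to 33311420, plus strand), the shared second chain for IL-10, had 12.7, 14.0, 13.3 and 11.2 CPM in Sep and 19.0, 20.6, 13.3 and 14.7 CPM in Susp replicates 1 to 4. The same Susp replicates, 1 and 2, were the high ones. Its log2 fold change was 0.40 (SE 0.16). IL6ST (chromosome 5, 55935095 to 55995022, minus strand) had 19.2, 9.10, 16.4 and 20.9 CPM in Susp libraries, with replicate 2 lowest, against 17.6 to 20.7 CPM in Sep libraries.

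IL6R, IL13RA1 and IFNGR1 differed little between Susp and Sep cells. IL6R (chromosome 1, 154405193 to 154469450, plus strand), the IL-6 binding chain, had a log2 fold change of -0.04 (SE 0.13). IL13RA1 (X chromosome, 118727133 to 118794535, plus strand), the low-affinity IL-13 chain, had -0.11 (SE 0.10). IFNGR1 (chromosome 6, 137197483 to 137219449, minus strand) had -0.12 (SE 0.08), with 165.5 to 175.8 CPM in Susp libraries and 173.5 to 212.9 CPM in Sep libraries. For these 3 genes and IL6ST the 95% intervals included 0.

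**Figure D2:**
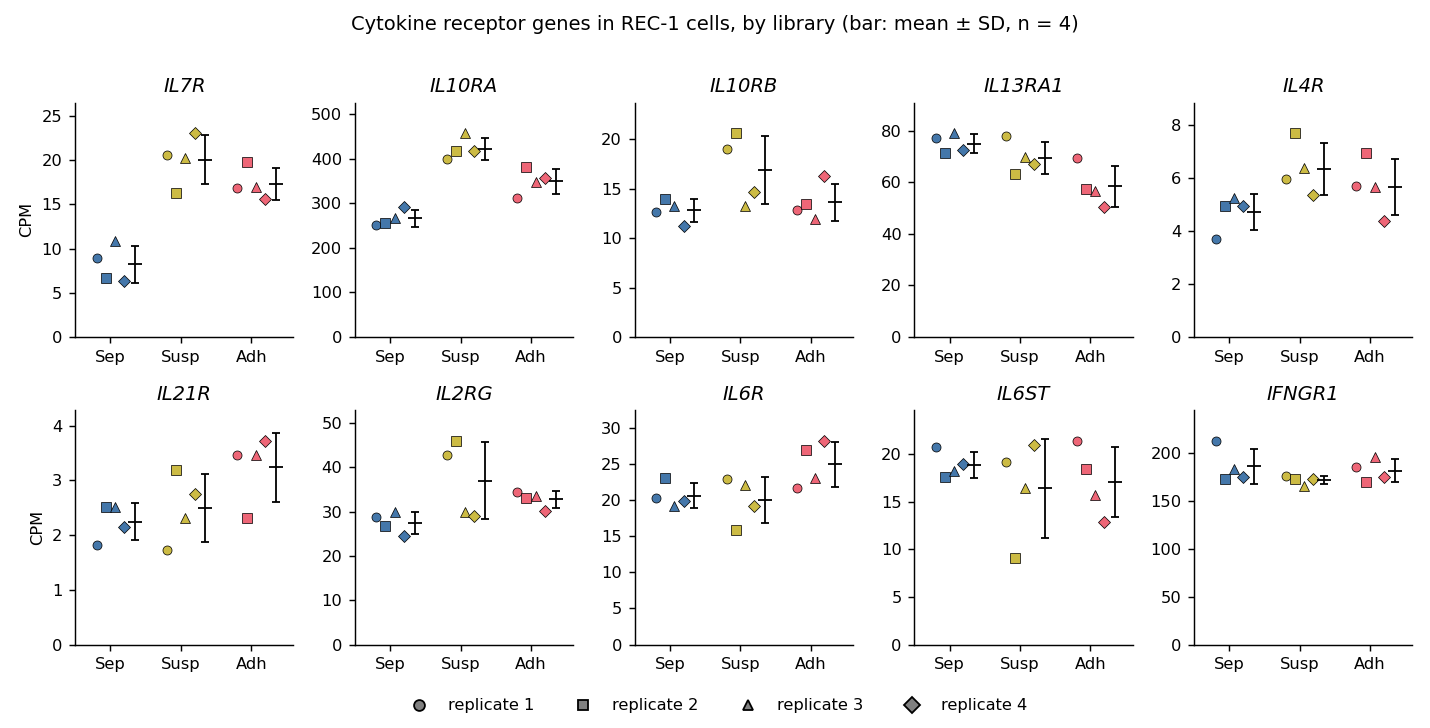
CPM of each of the 10 receptor genes in every REC-1 library (points, 1 marker shape per replicate number) with the mean ± SD of the 4 libraries of each group, every vertical axis starting at 0. The Susp and Adh points of IL7R and IL10RA lie above all their Sep points, and the Susp points of IL2RG and IL10RB split into replicates 1 and 2 above and 3 and 4 below.

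The second comparison set REC-1 cells adhered to stroma against monocultured cells. It shares the Sep libraries with the first, so its values stand beside those above and are not a separate repeat. IL7R had 16.8, 19.8, 17.0 and 15.7 CPM in Adh replicates 1 to 4 (mean 17.3 ± 1.78, SD, n = 4), against a Sep mean of 8.23 ± 2.11. All Adh libraries were above all Sep libraries, with a log2 fold change of 1.08 (SE 0.17, 95% interval 0.72 to 1.45), or 2.12-fold. IL10RA had 311.2, 381.2, 347.3 and 356.2 CPM in the Adh libraries, again above every Sep library. Its log2 fold change of 0.39 (SE 0.08, 95% interval 0.21 to 0.57), or 1.31-fold, was under the fold minimum. Without that minimum, 2 of the 10 genes would be called here, and 3.41% of all tested genes.

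Of the 10 genes, 1 (IL7R) was called higher in Adh than in Sep cells and 0 lower, while 2.4% of all tested genes were called with 0.583% higher and 1.82% lower. Between these groups 4 genes did not overlap in their libraries, of which 3 were higher (IL7R, IL10RA and IL2RG) and 1 was lower (IL13RA1), against 15.7% of all tested genes in either direction. IL13RA1 had 69.5, 57.6, 56.5 and 50.4 CPM in Adh libraries and 71.2 to 79.0 CPM in Sep libraries. Adh replicate 1 was just under the lowest Sep library, and the log2 fold change was -0.35 (SE 0.10, 95% interval -0.58 to -0.13). IL2RG had 34.5, 33.1, 33.4 and 30.02 CPM, the lowest of them close to the highest Sep library, and a log2 fold change of 0.26 (SE 0.14).

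The other 6 genes overlapped between Adh and Sep libraries. IL21R had the largest value among them, 0.53 (SE 0.27) on the log2 scale, with Adh replicate 2 (2.31 CPM) inside the Sep range and the other Adh libraries at 3.46 to 3.72 CPM. IL4R had 0.28 (SE 0.20), IL6R 0.27 (SE 0.14) and IL10RB 0.09 (SE 0.16). IL6ST had -0.13 (SE 0.21) and IFNGR1 -0.04 (SE 0.08), and IFNGR1 was between 170.0 and 196.6 CPM in the Adh libraries. The median log2 fold change over the 10 genes was 0.26, with 7 above 0 and 3 below, and 49.5% of all tested genes were above 0.

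The last comparison set adhered against suspended cells of the cocultures. None of the 10 genes was called by edgeR or by DESeq2, and 0.778% of all tested genes were called by edgeR. IL10RA was the single member without overlap, with 311.2 to 381.2 CPM in Adh and 399.2 to 456.8 CPM in Susp libraries, while 11.4% of all tested genes did not overlap. Its log2 fold change was -0.28 (SE 0.08, 95% interval -0.45 to -0.10), so it was highest in Susp, lower in Adh and lowest in Sep cells. For IL7R the value was -0.21 (SE 0.16, 95% interval -0.55 to 0.13), and Adh and Susp libraries overlapped.

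IL6R was at 21.6, 27.0, 23.1 and 28.2 CPM in Adh replicates 1 to 4 and at 22.9, 15.9, 22.1 and 19.3 CPM in Susp replicates 1 to 4. The groups overlapped through Adh replicate 1, and the log2 fold change was 0.31 (SE 0.13, 95% interval 0.03 to 0.60). IL13RA1 had -0.25 (SE 0.10), IL10RB -0.31 (SE 0.16) and IL21R 0.37 (SE 0.26). The remaining values were -0.17 for IL2RG, -0.16 for IL4R, 0.07 for IL6ST and 0.08 for IFNGR1. The median of the 10 genes was -0.16, with 4 above 0 and 6 below, and 49.1% of all tested genes were above 0. This median was -0.08 without Susp replicate 2 and -0.10 without Adh replicate 4.

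**Figure D3:**
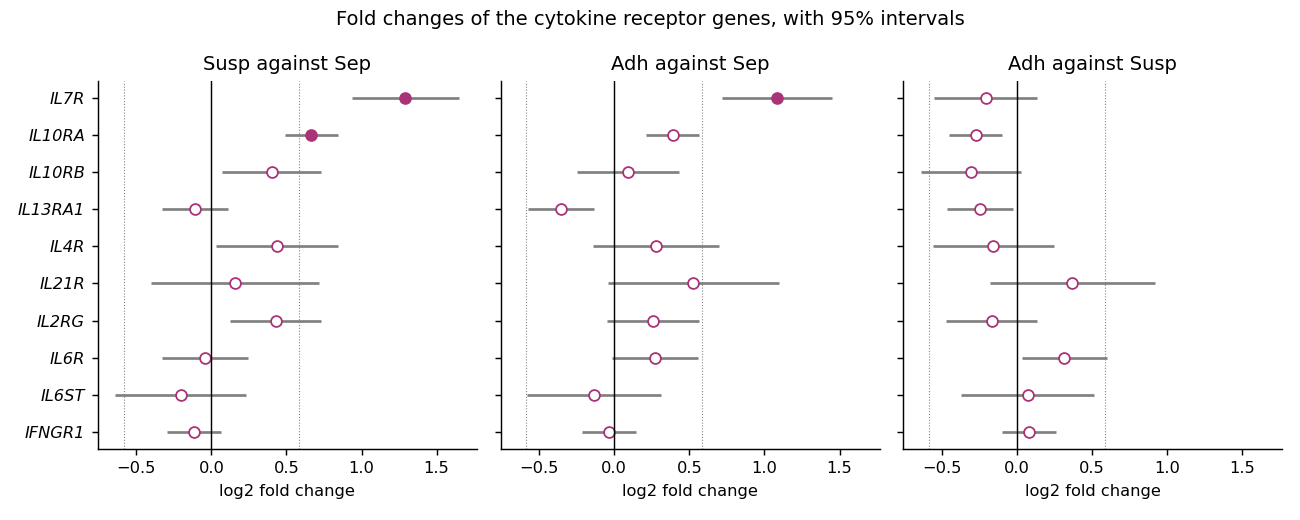
Log2 fold change of each receptor gene in the 3 comparisons of REC-1 groups, with 95% intervals from edgeR. Filled points are called, dotted lines mark the 1.5-fold minimum, and only IL7R (both comparisons with Sep) and IL10RA (Susp against Sep) are filled.

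Ratios between chains that form 1 receptor were computed within each library. The ratio of IL7R to IL2RG in RPKM was 0.135 ± 0.0237 in Sep, 0.262 ± 0.0890 in Susp and 0.240 ± 0.0221 in Adh cells (SD, n = 4). It spread most in Susp cells, from 0.161 to 0.360, where IL2RG differed between libraries. Susp libraries thus overlapped the Sep libraries (up to 0.165), while all Adh libraries (from 0.222) lay above them. The ratio of IL10RA to IL10RB was 19.1 ± 3.11 in Sep, 23.6 ± 6.08 in Susp and 23.5 ± 3.10 in Adh cells, and these groups overlapped. With canonical transcript lengths it was 11.2, 13.8 and 13.7. Any IL10RB reads lost to its exon overlap with IFNAR2-IL10RB would raise these ratios, which was not tested. The ratio of IL4R to IL2RG was 0.0802 ± 0.0146, 0.0820 ± 0.0144 and 0.0801 ± 0.0125. The ratio of IL4R to IL13RA1, its other partner, was 0.0497 ± 0.00796 in Sep, 0.0730 ± 0.0161 in Susp and 0.0769 ± 0.0136 in Adh cells, and the Sep libraries (up to 0.0548) lay below all Susp and Adh libraries (from 0.0605). IFNGR2, the partner of IFNGR1, was named for this pairing after its values were seen, and the ratio of IFNGR1 to IFNGR2 was 2.65 ± 0.217, 2.22 ± 0.227 and 2.498 ± 0.316. Among the pairs of members, log2 CPM over the 12 libraries was most alike for IL7R and IL10RA (Pearson r = 0.847) and most opposed for IL13RA1 and IL21R (r = -0.704). These libraries share their groups and their sequencing depth, so the coefficients are a description.

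The rest of the pathway was read from 5 lists with 114 genes in all, of which 66 had enough counts to be tested. In Susp against Sep cells 1 gene rose (PIM2) and 2 fell (CIITA and IL1RAP), and in Adh against Sep cells 1 rose (PIM2) and 1 fell (CIITA), where 0.731% and 2.4% of all tested genes were called. None was called between Adh and Susp cells by edgeR, where 9 of the 66 had an unadjusted p under 0.05, as had 18% of all tested genes. DESeq2 called 1 of them there (IL5RA) and 282 of all 12861 genes. The median log2 fold change over the 66 genes was -0.06, -0.07 and -0.03 in the 3 comparisons.

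STAT target genes held most of these calls. PIM2, a survival kinase induced by cytokines, had 94.3 CPM ± 4.96 in Sep, 150.2 ± 20.1 in Susp and 164.3 ± 15.4 in Adh cells (SD, n = 4). It rose by 0.67 on the log2 scale in Susp cells (SE 0.10, adjusted p = 0.00296 in edgeR) and by 0.80 in Adh cells (SE 0.10, adjusted p = 0.000385). CIITA, the activator of MHC class II genes and a target of interferon gamma signaling, had 50.3 CPM ± 11.6, 28.5 ± 2.74 and 26.7 ± 2.52. It fell by 0.82 in Susp (SE 0.14, adjusted p = 0.00749 in edgeR) and by 0.91 in Adh cells (SE 0.15, adjusted p = 0.00177). These opposite directions stood within 1 list of 18 targets, of which 16 were tested and 14 were called in neither comparison with Sep. PIM1 had 75.5 CPM ± 7.38, 66.3 ± 3.29 and 62.1 ± 2.56.

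Of the other receptor chains 20 of 45 were tested, and 1 was called. IL1RAP, the second chain of the IL-1 receptor, had 10.4 CPM ± 1.10 in Sep, 6.20 ± 1.14 in Susp and 8.30 ± 0.935 in Adh cells. It fell by 0.75 in Susp cells (SE 0.16, adjusted p = 0.0374 in edgeR), and the call was lost when any single Sep or Susp library was left out (adjusted p up to 0.145). IFNGR2 was not called, with 50.4 CPM in Sep, 55.7 in Susp and 52.4 in Adh cells. IL2RA and IL2RB, the further chains of the IL-2 receptor, and CRLF2, which forms the receptor for TSLP with IL7R, had at most 4 counts in any library.

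None of the 10 tested kinases and STATs (of 11) was called. JAK1, which binds the tails of IL7R, IL4R, IL21R, IL10RA and gp130, had 147.2 CPM in Sep, 137.2 in Susp and 151.2 in Adh cells. JAK3, the partner of IL2RG, had 13.7, 15.4 and 11.7 CPM. STAT5B, a STAT of IL-7 signaling, had 38.3, 40.0 and 38.7 CPM, while its close relative STAT5A had at most 24 counts in any library. STAT3, the main STAT of IL-10 and IL-6, had 43.4, 43.3 and 43.4 CPM. STAT2 had an adjusted p of 0.0439 in edgeR between Adh and Sep cells with a log2 fold change of -0.37 (SE 0.10), under the fold minimum.

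None of the 16 tested inhibitors (of 17) was called in any comparison. CISH and SOCS3, feedback inhibitors that cytokine signaling through STATs is known to induce, were low. CISH had 1.58, 1.26 and 1.02 CPM in Sep, Susp and Adh cells, SOCS3 had 0.962, 1.27 and 1.04 CPM, and SOCS1 had at most 8 counts in any library. The phosphatase PTPN6 had 389.5 CPM ± 25.4, 499.5 ± 35.0 and 442.1 ± 47.5.

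Of 23 human ligand genes 4 were tested and none was called. IL7 had 17.8 CPM ± 2.27 in Sep, 13.8 ± 2.75 in Susp and 14.7 ± 4.07 in Adh cells, so transcripts of the ligand were counted in REC-1 cells themselves. EBI3, a subunit of IL-27 and IL-35, had 84.7, 80.4 and 82.4 CPM. IL10 had at most 12 counts in any library, and IL2, IL4, IL6 and IL21 were at 0 counts in all 12.

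**Figure D4:**
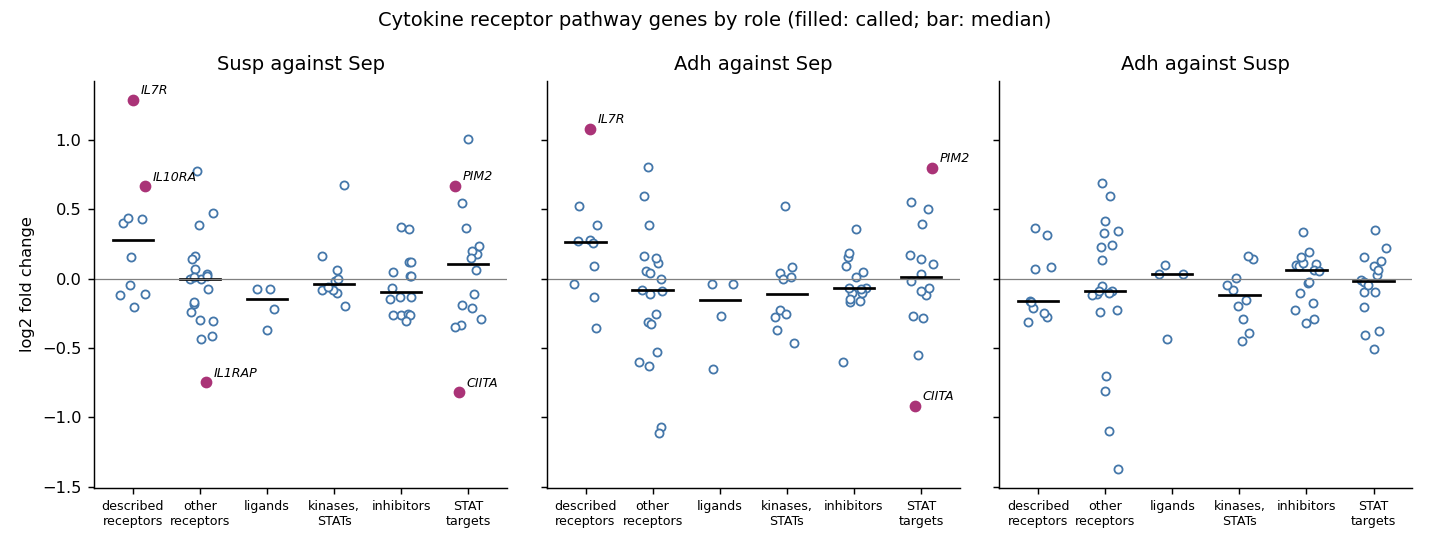
Log2 fold change of the 10 described receptors and of the tested genes of 5 pathway lists in the 3 comparisons of REC-1 groups (points: genes, bars: list medians, filled and named: called). Apart from IL7R and IL10RA, the named points are PIM2 above 0 and CIITA and IL1RAP below 0.

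The mouse counts gave the same receptors in MS-5 cells, which the choice of the 10 genes did not use. Mouse depth was 10097555 to 17397651 counts in MS-5 cells alone and 29495404 to 34615602 in Adh libraries. Il7r and Il10ra were at 0 counts in all 8 mouse libraries, and Il21r, Il2rg and Il13ra1 had at most 10. Of 10 orthologs 5 were tested, and none was called between MS-5 cells with REC-1 and alone, while 0.205% of the 12201 tested mouse genes were called and 11.3% had an unadjusted p under 0.05. Il6st had 364.2 CPM ± 14.6 alone and 398.5 ± 16.3 in coculture (SD, n = 4), a log2 fold change of 0.13 (SE 0.05, adjusted p = 0.311 in edgeR, unadjusted p under 0.05). Il4ra had -0.11 (SE 0.08), Ifngr1 -0.09 (SE 0.06), Il6ra 0.18 (SE 0.09) and Il10rb 0.02 (SE 0.14), with adjusted p between 0.491 and 0.976.

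Of 22 mouse ligand genes 4 were tested and none was called by edgeR or DESeq2. Il7 had 4.46, 3.38, 5.09 and 3.52 CPM in MS-5 cells alone and 5.70, 4.70, 6.07 and 5.91 CPM in coculture, in replicates 1 to 4. The groups overlapped through Adh replicate 2 and MS-5 replicate 3, and the log2 fold change was 0.42 (SE 0.17, adjusted p = 0.344 in edgeR, unadjusted p under 0.05). Clcf1, a ligand of the gp130 family, had 48.2 CPM ± 2.55 alone and 38.6 ± 8.23 in coculture (log2 fold change -0.32, SE 0.12, adjusted p = 0.290 in edgeR, unadjusted p under 0.05). Il15 had 0.23 (SE 0.26) and Lif 0.14 (SE 0.37). Il10, Ifng, Il2, Il13 and Il21 were at 0 counts in all 8 libraries and Il6 had at most 4.

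**Figure D5:**
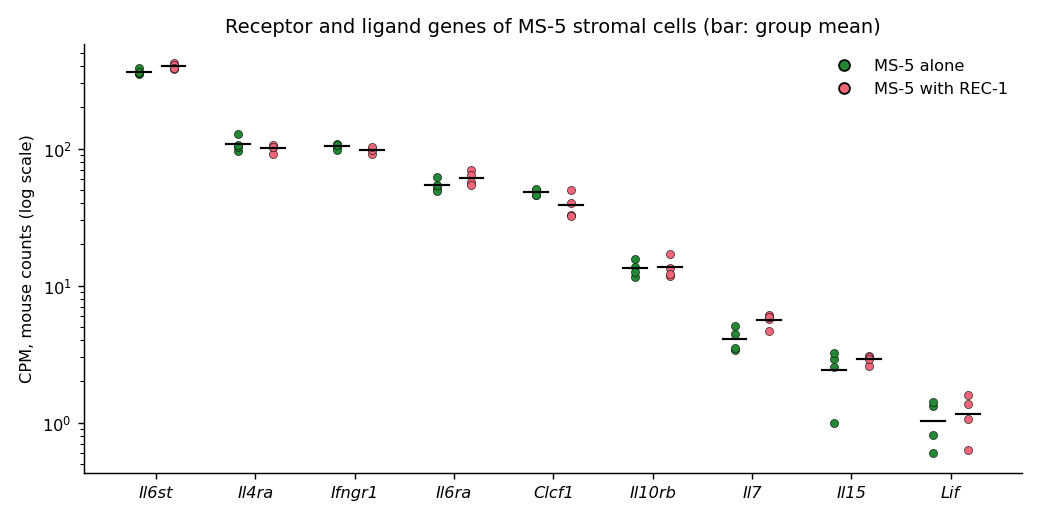
CPM of mouse counts (log axis) for the 5 receptor orthologs and 4 ligand genes that had enough counts to be tested, in MS-5 cells alone (green) and in Adh libraries (red), with a bar at each group mean. The libraries of both groups overlap for all 9 genes, as they did for all but 6.74% of the tested mouse genes.

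Since Adh libraries hold RNA of both species, the human counts of each receptor were set beside the mouse counts of its ortholog. Human IL6ST had 100 to 284 counts per Adh library against 11278 to 14149 for mouse Il6st, and made up 1.33% of both. Human IL4R had 34 to 76 counts against 3102 to 3456, or 1.71% of both. The human share was 10.9% for IL6R, 23.0% for IL10RB and 36.0% for IFNGR1. For IL7R, IL10RA and IL21R it was 100%, with 0 mouse counts, and for IL13RA1 and IL2RG 99.2 and 98.5%. COL1A1, COL3A1 and PDGFRB, which MS-5 cells express, had human counts of 0.00470 to 0.00516% of the mouse counts in these libraries. COL1A1 and COL3A1 also had 10 and 6 human counts in Sep libraries, which hold no MS-5 cells, against 8 and 2 in Adh. These percentages are therefore not a rate of misassignment. LUM and DCN had 0 mouse counts, and POSTN had 27 against 47 human counts, so these markers cannot show misassigned mouse reads. The part of misassigned mouse reads in the Adh values of IL6ST, IL4R and IL6R was not tested gene by gene.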

How the data were processed

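RNA was extracted after 24 h from Sep, Susp, Adh and MS-5 cultures, and polyA libraries were sequenced as paired ends. The authors separated human from mouse reads with Xenome, aligned them with STAR 2.5.1b to GRCh38 or GRCm38, keeping uniquely mapped reads, and counted them on Ensembl genes with featureCounts of Subread 1.5.2. The strand setting is not given in the sources used here. The deposited values were whole-number counts per gene, neither normalized nor filtered. The methods speak of fragments, but 65.6 to 79.8% of the values from 1 to 10 were even, so both mates of a pair may have been counted and a count may hold less information than 1 fragment each. The tables hold 20 further sample columns that were not used. Human counts ranged from 7758979 to 21467832 per library and mouse counts from 10097555 to 34615602, and depth limits the precision of low genes such as IL21R.

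Statistics were computed in R 4.3.3 with edgeR 4.0.16 (filterByExpr, TMM, quasi-likelihood F-test in its legacy form). All 12 REC-1 libraries were fitted in 1 model with 3 contrasts, and the 8 mouse libraries in another. Calls required a p-value adjusted by Benjamini-Hochberg over all tested genes of no more than 0.05 together with a change of 1.5-fold or more. Intervals are the SE times 2.12 (human) or 2.13 (mouse), from the residual and prior degrees of freedom. CPM used TMM-scaled library sizes, and RPKM divided them by the union of exons in GENCODE release 44. The authors counted on an earlier Ensembl annotation, and 56948 of its 58051 human genes were found in release 44. Exons added since lengthen the divisor but could receive no counts, so RPKM levels, shares and ratios depend on this choice. In release 44 IL2RG shares 51.3% of its exon length with a readthrough gene that was not used here. IL10RB shares 21.6% with IFNAR2-IL10RB (0 counts) and IL21R 23.3% with IL21R-AS1 (at most 1 count). The IL10RB overlap is 1732 bases on the same strand, beside a canonical transcript of 1941 bases. How reads lying on both genes were counted is not given, so 0 counts do not show that IL10RB lost no reads. The fitting code was run on simulated counts with the same dispersion for every gene and no effect shared by replicate number. That run covered the first contrast of each species and checks the code, not how well the model describes these libraries.

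The members, the pathway and marker lists and the rule for named genes were chosen with earlier results of these data known. Named were the 10 members, each called list gene up to 5 per list and comparison, the tested mouse orthologs and ligands, and the 5 genes most like IL7R and IL10RA. Genes named for their level or role (the kinases and STATs, inhibitors, ligands, PIM1, IFNGR2 and IL5RA) were chosen after their values were seen. Deviations of libraries with the same replicate number had r above 0.1 for 1 of 4 numbers in Susp against Sep. This held for 3 of 4 in Adh against Sep, 1 of 4 in Adh against Susp and 2 of 4 in Adh against MS-5. The number did not enter the main fit because what it marks is not stated, and these values do not show that it could be left out. With the number as a block, more genes were called in each of these comparisons. The shares of all tested genes given here therefore hold for the fit without a block. Alternatives were DESeq2 1.42.0, upper-quartile factors, no filter, another dispersion method, the replicate number as a block, removal of mitochondrial genes, no fold minimum and each library left out. Protein sequences of the receptors were not analysed here, and a few items that the rule or the lists cover are not reported here.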

Additional observations from a re-analysis of the deposited data

How the results depend on the processing

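Since the receptors were chosen with these contrasts known, their calls under other settings describe how the values move and are no support for a change. IL7R was called in both comparisons with Sep cells under 18 of 18 alternatives, with log2 fold changes of 1.18 to 1.45 in Susp and 0.97 to 1.24 in Adh cells. IL10RA was called under 18 of 18 in Susp (0.63 to 0.71) and 0 of 18 in Adh cells (0.35 to 0.44). Without a fold minimum, 2 members instead of 1 were called between Adh and Sep cells. The 3 pathway genes called in Susp against Sep cells numbered 2 to 3 when single libraries were left out. The 2 called in Adh against Sep cells numbered 2 to 5, with 5 without Sep replicate 1 (TYK2, IL5RA and GFI1 added). IL5RA was near the threshold there in the main fit (log2 fold change 0.59, adjusted p = 0.0563 in edgeR). It was also called there with DESeq2, without the low-count filter, and without Susp replicate 1, Susp replicate 2 or Adh replicate 2. Between Adh and Susp cells 0 pathway genes were called without any 1 library, but 1 with DESeq2 (IL5RA), 1 without the low-count filter (IL11) and 1 with the replicate number as a block (IL5RA, log2 fold change 0.60, adjusted p = 0.0229 in edgeR). The block changed no call of the 10 receptor genes followed here, and what a number marks is not stated. Over all 12861 tested genes it raised calls from 94 to 175 in Susp against Sep and from 309 to 384 in Adh against Sep. In Adh against Susp cells it raised them from 100 to 281. Adh and Susp libraries may share a culture dish by number, and their deviations had r above 0.1 for 1 of 4 numbers. IL1RAP kept its direction but was called under 9 of 18 alternatives. Leaving out single libraries turned the sign of uncalled mouse values, between -0.10 and 0.11 for Il10rb (below 0 without MS-5 replicate 2, MS-5 replicate 4 or Adh replicate 1) and between -0.045 and 0.36 for Lif (below 0 without MS-5 replicate 2 or Adh replicate 4). The cause was not tested. IL6R in Susp, IFNGR1 in Adh and IL6ST between Adh and Susp cells, all close to 0 and uncalled, kept their sign under 16, 17 and 16 of 18 alternatives. The median log2 fold change of the 10 receptors was 0.16 to 0.32, 0.20 to 0.28 and -0.20 to -0.08 in the 3 comparisons when single libraries were left out, with 0.16 and -0.08 both without Susp replicate 2. Depth limited IL21R, at 23 to 52 counts per library, and IL4R, at 34 to 132.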

Other observations

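The genes whose log2 CPM ran most like IL7R over the 12 REC-1 libraries, among 12860 tested genes, were CD86 (Pearson r = 0.964), RIMS3 (0.928), SLC39A8 (0.924), CHL1 (0.924) and PECAM1 (0.922). CD86, a costimulatory ligand of antigen-presenting cells, had means of 14.4 CPM in Sep, 47.7 in Susp and 45.7 in Adh cells. PECAM1, an adhesion molecule, had 18.7, 30.3 and 25.6 CPM.

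Among the genes most like IL10RA were P2RX1 (r = 0.940), SLC43A2 (0.935), RIMS3 (0.933) and FAM117A (0.927). P2RX1, an ATP-gated channel, had means of 61.5 CPM in Sep, 109.3 in Susp and 80.9 in Adh cells. RIMS3 stood on both lists. The libraries share groups and depth and the genes were picked for these coefficients, which are therefore a description.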
